A study of Mus musculus with 6 samples.

Results

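Plcg2, Vav1, Bmx, Rac2, Ptprc, Ptpn6, Matk, Syk and Lyn encode signalling proteins that are best known from blood cells, and their transcripts were examined here in tuft cells of the mouse thymus, an epithelial cell type. The 9 genes were taken by name from a table of 55471 genes; each symbol matched 1 Ensembl identifier, and all 9 passed the filter on low values. RNA was sequenced from cells that had been sorted for the surface protein L1CAM, with 3 libraries in each of 2 groups. All mice carried floxed alleles of Ikzf1, the gene of the transcription factor Ikaros. One group lacked Foxn1-Cre and is labelled WT; the other carried it and is labelled KO. Foxn1 is active in thymic epithelium, so this Cre acts in epithelial cells rather than in blood cells. The labels used here name no age, sex or strain. The table calls its columns Het and Ko: Ko was taken as the Cre-positive group and Het, by elimination, as the Cre-negative one. No label says that the libraries came from separate animals, so the spread between them may be partly technical.

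Libraries held between 12238428 reads (Ko3) and 31435787 reads (Het1). The targeted gene went against its label: Ikzf1 stood at 187 to 301 normalized counts in Het and was higher in Ko libraries, at 1463 to 1717 (limma adjusted p = 0.0105). Which exons are floxed is not stated here, and Het and Ko below are the libraries labelled so. The sort gene L1cam was at 2395 to 3053 and 2924 to 4277. All 21 tuft cell markers on the list, among them Pou2f3, Trpm5 and Gnat3, had reads in all 6 libraries. Together they took 0.699% to 0.987% of reads in Het and 0.918% to 1.03% in Ko libraries, lowest in Het3. Of the 21, 18 log2 fold changes (Ko over Het) were positive and 3 negative. Their median was 0.33, against -0.05 over all genes tested. At an adjusted p of 0.05 limma called 1 of them, Ptgs1, higher in Ko, where it called 0.814% of all genes. EdgeR did not call Ptgs1 (adjusted p = 0.0728). Single libraries stood apart in genes of other cells: Het1 in the lysozyme gene Lyz2 (53300 normalized counts, against 3666 and 8729 in Het2 and Het3 and 497 to 2900 in Ko), Het3 in the globin gene Hbb-bs (6292, against at most 293 elsewhere) and Ko2 in the fibroblast gene Dcn (9169, against at most 2107 elsewhere). In bulk RNA, fewer cells of a type and less RNA per cell cannot be told apart.

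In lymphocytes and myeloid cells, an engaged antigen or Fc receptor is phosphorylated on its ITAM motifs by Src family kinases such as Lyn, and the kinase Syk docks on the phosphorylated motif. Adaptors then bring in Tec family kinases, of which Bmx is one, and phospholipase C gamma 2 (Plcg2), which splits a membrane lipid into inositol trisphosphate and diacylglycerol and so releases calcium. Vav1 loads the GTPase Rac2, which acts on actin and on the phagocyte oxidase. The receptor phosphatase CD45 (Ptprc) switches Src kinases on, and the kinases Csk and Matk switch them off. The phosphatase SHP-1 (Ptpn6) docks on inhibitory ITIM receptors. Tuft cells are chemosensory epithelial cells whose taste receptors signal through another phospholipase, Plcb2, to the cation channel Trpm5.

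Promoter sequences were looked up to show what lies before the start of these genes. The RefSeq table (build GRCm38.p6, another build than the authors' GRCm39) held 7 of the 9 members, with 10 start sites; Rac2 and Lyn had no entry. The 250 bases before each start are shown, 5′ to 3′ on the gene's strand, for Plcg2 and Matk, the pair whose values did not overlap between the groups, in opposite directions, and for Bmx and Vav1, kinase and exchange factor with high levels in every library. Matk has another start site in the table, which is not shown. Capitals mark matches to TGGGAA, a core that Ikaros can bind, or to GAGGAA, the PU box of the factors PU.1 and SpiB, on either strand.
Plcg2 (chr8:117498025-117498274, plus strand): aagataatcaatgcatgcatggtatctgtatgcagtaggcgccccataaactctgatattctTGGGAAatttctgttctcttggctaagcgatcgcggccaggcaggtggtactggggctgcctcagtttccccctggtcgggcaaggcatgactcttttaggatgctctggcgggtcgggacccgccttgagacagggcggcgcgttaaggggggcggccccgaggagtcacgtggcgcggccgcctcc
Matk (chr10:81252685-81252934, plus strand): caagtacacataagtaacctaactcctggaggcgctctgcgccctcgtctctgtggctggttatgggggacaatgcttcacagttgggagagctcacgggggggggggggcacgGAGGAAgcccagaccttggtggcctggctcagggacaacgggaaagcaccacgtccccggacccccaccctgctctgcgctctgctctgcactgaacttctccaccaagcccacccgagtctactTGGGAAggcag
Bmx (chrX:164258194-164258443, minus strand): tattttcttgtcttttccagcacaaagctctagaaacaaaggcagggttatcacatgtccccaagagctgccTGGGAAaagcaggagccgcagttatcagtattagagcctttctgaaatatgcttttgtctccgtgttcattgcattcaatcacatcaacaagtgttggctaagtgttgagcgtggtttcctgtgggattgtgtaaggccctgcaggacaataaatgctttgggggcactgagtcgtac
Vav1 (chr17:57278850-57279099, plus strand): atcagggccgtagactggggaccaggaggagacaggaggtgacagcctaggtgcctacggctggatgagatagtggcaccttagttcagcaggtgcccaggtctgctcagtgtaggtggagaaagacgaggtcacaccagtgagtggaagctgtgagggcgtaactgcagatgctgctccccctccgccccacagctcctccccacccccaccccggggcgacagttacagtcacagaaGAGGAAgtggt
TGGGAA was found in 4 of the 10 windows, those of Plcg2, Bmx, Ptpn6 and the first Matk start, against 21.6% of all 32851 windows of this length in the table. GAGGAA was found in 4 of the 10, those of Vav1, the first Matk and Ptprc starts and the second Syk start, against 23.3% of all windows. Both motifs end in GGAA, so that 1 site cannot match both on the same strand. The octamer ATGCAAAT, bound by POU factors such as the tuft cell regulator Pou2f3, was found in 0 of the 10 windows and in 1.60% of all. These matches are letters in a window and show no binding.

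Per length of transcript, members spanned a wide range of levels, and their order was nearly the same in every library. On the scale of normalized counts per kilobase of the principal transcript, Bmx was first in all 6 libraries, at 4486 ± 1055 in Het and 5815 ± 804 in Ko (SD, n = 3 each, as for all values in this form). Ptpn6 was second in all 6, at 3706 ± 687 and 3225 ± 120; the ranges of the 2 overlapped in Het and not in Ko. Matk, Vav1 and Rac2 shared the next 3 places. In Het these were at 2723 ± 902, 2227 ± 419 and 1739 ± 312 per kilobase, and the ranges of neighbours overlapped. In Ko, Vav1 stood above the others at 2505 ± 297, and Rac2 and Matk overlapped at 1247 ± 173 and 1223 ± 271. Plcg2 was sixth at 666 ± 82.5 and 966 ± 47.4, Lyn seventh at 352 ± 150 and 415 ± 75.4, Ptprc eighth at 126 ± 19.3 and 94.9 ± 26.7 and Syk ninth at 66.9 ± 29.1 and 18.6 ± 18.2, in each library. The ranges of these last 4 did not overlap in either group, while that of Plcg2 overlapped with Matk in Ko. For scale, the taste channel gene Trpm5 stood at 3649 ± 764 and 4528 ± 328 per kilobase and Plcb2 at 1080 ± 267 and 1176 ± 42.7.

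**Figure D1:**
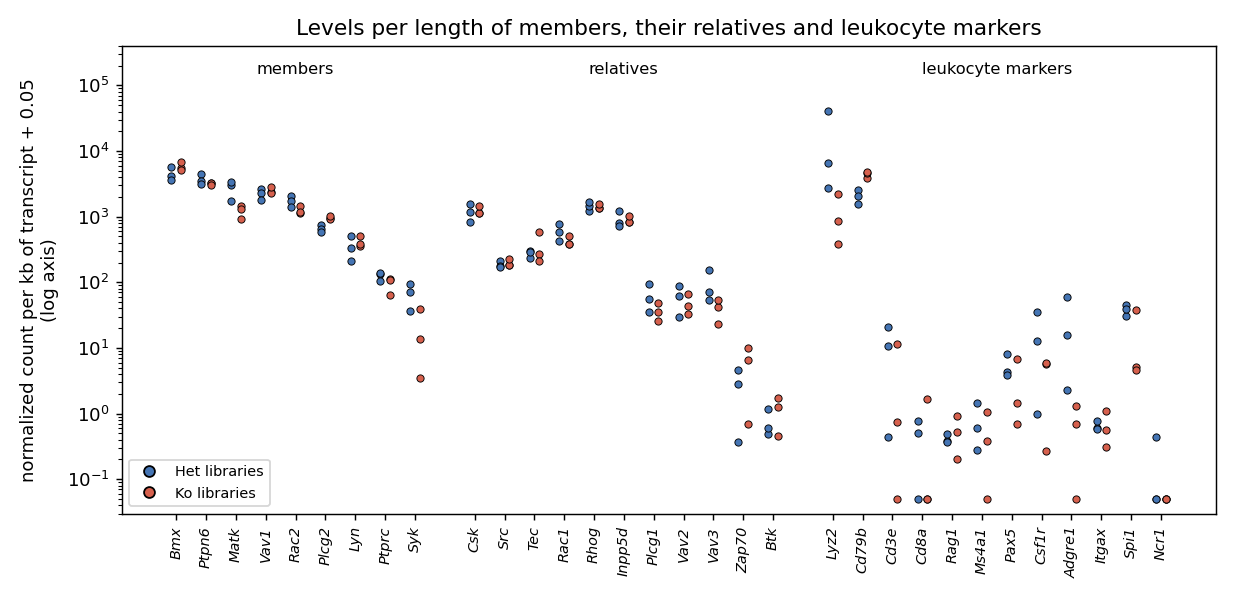
Normalized counts per kilobase of principal transcript (log axis, 0.05 added so that 0 can be drawn) for the 9 members, 11 of their relatives and 12 leukocyte markers; each point is 1 library, Het in blue and Ko in red. In all 6 libraries the 7 members from Bmx to Lyn lie above the 10 leukocyte markers drawn beside Lyz2 and Cd79b. The 12 markers are a choice from the lists. Better read ones, among them Kit, Fcer1g and S100a9, are not drawn, so this order holds only for the markers shown. Lyz2 lies above Bmx in Het1 (40501 per kilobase) and Het3 (6633), and Btk and Zap70 lie near the bottom.

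The design compares the 2 groups of tuft cells. None of the 9 members passed limma's test over 19416 genes at an adjusted p of 0.05, where 158 genes did, or 0.814% of all. At an unadjusted p under 0.05 there were 5 members, or 55.6% of members against 13.6% of all genes. Plcg2 and Bmx were higher in Ko (5.62% of all genes) and Matk, Syk and Rac2 lower (7.99%). The members were chosen with earlier results of these data known, so this share is no test of the list. Groups did not overlap for 2 members, Plcg2 and Matk, or 22.2% of members against 18.4% of all genes (8.57% higher and 9.86% lower). The share of members without overlap is near that background. Of the 9 log2 fold changes 4 were positive and 5 negative, with a median of -0.19, against -0.05 over all genes tested. EdgeR on recovered reads called 0 members (0.386% of all genes), as did voom (0.206%), and DESeq2 called Matk alone, lower in Ko (5.93% of all genes called, 3.96% lower). In the authors' deposited table, Plcg2 and Matk had an adjusted p under 0.05, as did 8.19% of genes given one there.

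**Figure D2:**
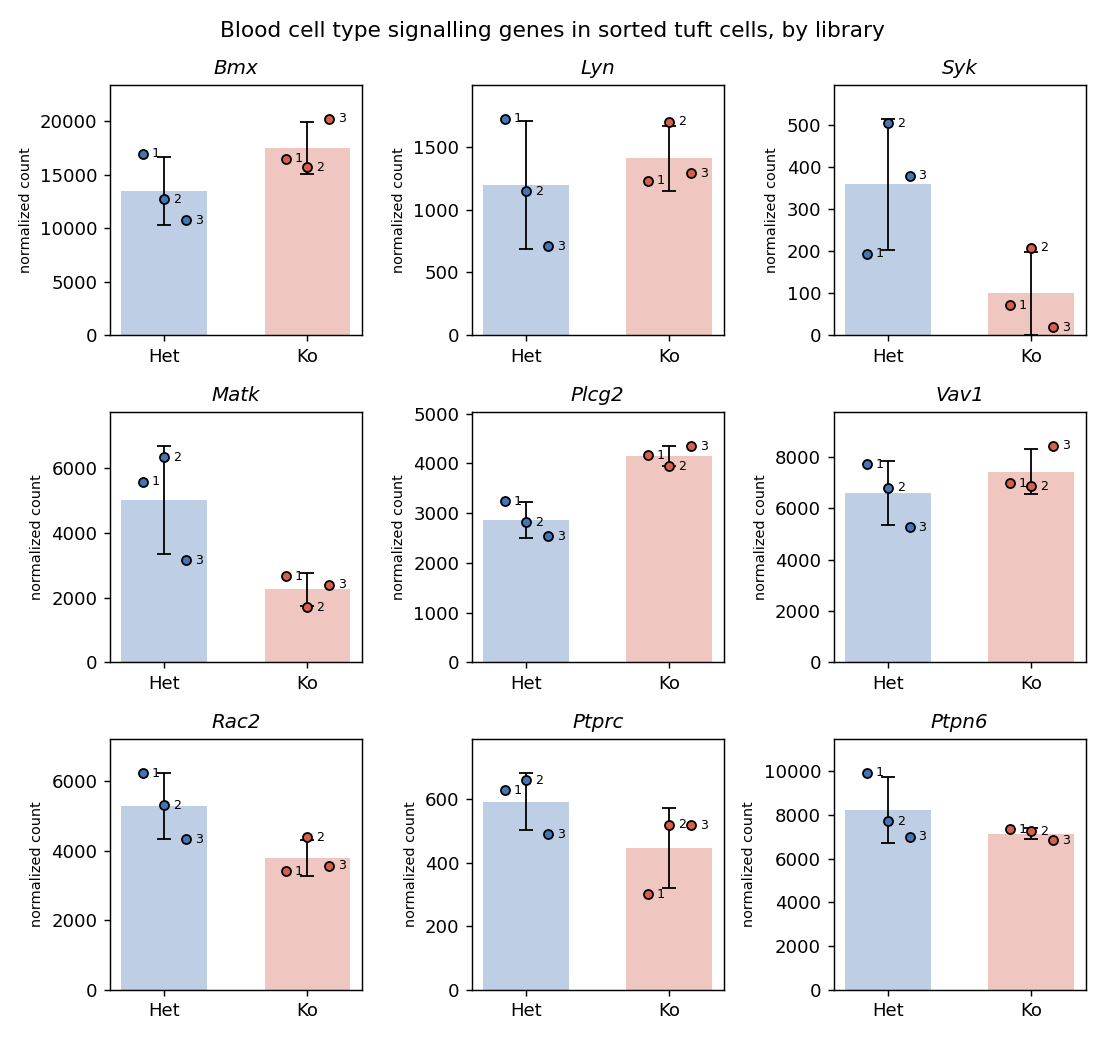
Normalized counts of each member (linear axis from 0) in the Het and Ko libraries; points are single libraries marked with their column number, bars are means and error bars SD (n = 3). Plcg2 lies higher and Matk lower in all 3 Ko libraries than in any Het library, and the other 7 members overlap between the groups.

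Lyn, a Src family kinase that phosphorylates ITAM motifs, was read at a middling level in both groups. Its normalized counts were 1724, 1147 and 710 in Het1 to Het3, against 1229, 1699 and 1291 in Ko1 to Ko3. Het1 was the highest of the 6 libraries and Het3 the lowest, so that the Ko values lay within the Het range. The log2 fold change was 0.31 ± 0.33 (SE; 95% interval -0.41 to 1.04; limma adjusted p = 0.738), and it was -0.01 without Het3. None of the 8 Src family kinases passed the test. Lck, Fgr and Blk, which belong to lymphoid and myeloid cells, had 541, 201 and 62 reads over the Het libraries and 189, 20 and 46 over the Ko libraries. In normalized counts each of them overlapped between the groups. The Het and Ko means were 161 and 76.9 for Lck, 41.3 and 7.30 for Fgr and 15.2 and 16.8 for Blk. Het1 held 184 of the 201 Fgr reads in Het.

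Syk, the kinase that docks on phosphorylated ITAMs, was the lowest member and the most variable. Its normalized counts were 193, 503 and 379 in Het1 to Het3, against 72.0, 208 and 18.6 in Ko1 to Ko3, the last resting on 13 reads. The groups overlapped, since Ko2 lay above Het1, and the SD among Ko libraries was 98.1% of their mean. The Ko mean was 3.60-fold below the Het mean, with a log2 fold change of -2.32 ± 0.84 (SE; 95% interval -4.20 to -0.44; unadjusted p = 0.0204, limma adjusted p = 0.262). Without Ko3 the log2 fold change was -1.43 (limma adjusted p = 0.485), and without Ko2 it was -3.14 (0.152). Zap70, the other kinase of this family, was near the limit of detection, with 19 reads over the Het libraries and 37 over the Ko libraries.

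Matk, a Csk-like kinase that phosphorylates the inhibitory tail of Src kinases, differed most clearly among the members. It stood at 5564, 6328 and 3147 normalized counts in Het1 to Het3, against 2661, 1695 and 2399 in Ko1 to Ko3. All 3 Ko libraries were below all 3 Het libraries, although Het3 and Ko1 lay close. The Ko mean was 2.23-fold below the Het mean, with a log2 fold change of -1.12 ± 0.28 (SE; 95% interval -1.74 to -0.50; unadjusted p = 0.00246). This did not pass limma's adjustment (adjusted p = 0.111) or edgeR's (0.170), while DESeq2 called it (0.00182). The authors' deposited table gives a log2 fold change of -1.16 with an adjusted p of 0.0186. Over all alternatives the log2 fold change ran from -1.45 to -0.92 and the adjusted p from 0.00182 to 0.325.

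Csk, the broadly expressed kinase of the same family, overlapped between the groups. It was at 3273, 4239 and 2248 normalized counts in Het1 to Het3, against 3139, 3155 and 4019 in Ko1 to Ko3 (log2 fold change 0.12 ± 0.24, SE; limma adjusted p = 0.882). Within each library, which removes any scaling between libraries, Matk was 2.09 to 2.54 times Csk per kilobase in Het and 0.802 to 1.27 times in Ko. The log2 ratio was 1.19 ± 0.14 in Het and -0.05 ± 0.34 in Ko (SD, n = 3 each; two-sided exact permutation p = 0.10, the smallest that 3 against 3 allow, and 0.233 adjusted over 7 such ratios). Pag1, the membrane protein that anchors Csk, had 644 reads over the Het and 33 over the Ko libraries. Its normalized counts were 96.6 to 225 in Het and 0 to 28.8 in Ko, without overlap (log2 fold change -4.72 ± 1.34, SE; limma adjusted p = 0.151).

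**Figure D3:**
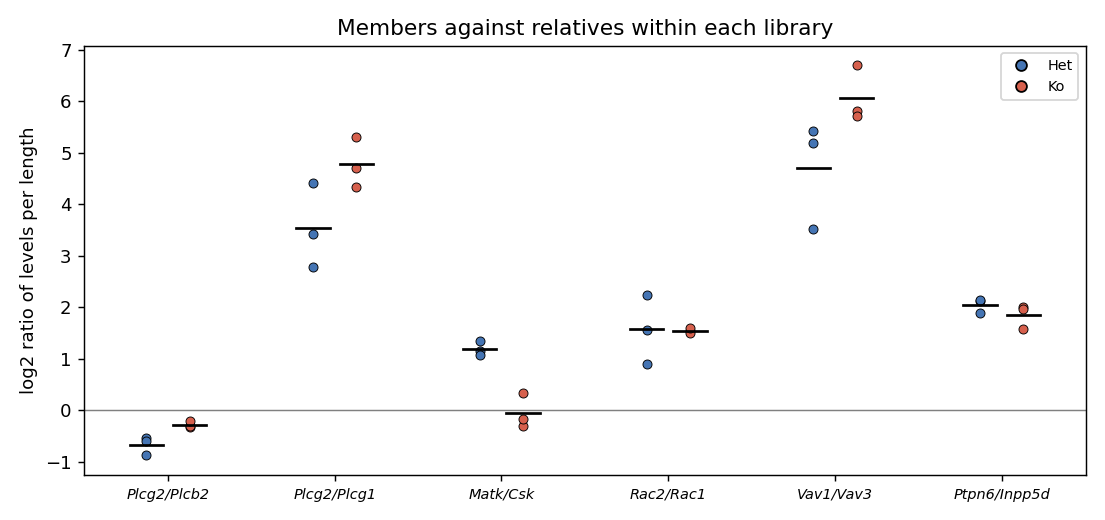
Log2 ratio of a member's level per kilobase to that of a relative (y axis) in each library; points are libraries, Het in blue and Ko in red, and bars are group means. Matk/Csk lies between 1.06 and 1.34 in Het and between -0.32 and 0.34 in Ko. Plcg2/Plcb2 (-0.88 to -0.55 and -0.33 to -0.21) and Vav1/Vav3 (3.51 to 5.42 and 5.71 to 6.69) do not overlap either. Plcg2/Plcg1, Rac2/Rac1 and Ptpn6/Inpp5d overlap.

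Bmx, a Tec family kinase, was the most abundant member per kilobase and stood at 16962, 12717 and 10761 normalized counts in Het1 to Het3, against 16494, 15704 and 20226 in Ko1 to Ko3. Ko3 was the highest library and Het2 and Het3 the lowest pair, while Het1 lay among the Ko values. The Ko mean was 1.30-fold the Het mean (log2 fold change 0.39 ± 0.18, SE; unadjusted p just under 0.05; limma adjusted p = 0.367). When the tuft cell markers were set to the same mean level in all libraries, the log2 fold change was 0.06, where the median over all genes was -0.38. The other Tec kinases were lower per kilobase, with Tec next at 275 ± 38.7 and 353 ± 198. Tec had 731 ± 103 and 939 ± 527 normalized counts, Txk 71 and 74 reads over Het and Ko libraries, and Btk, the Tec kinase of B cells and myeloid cells, 6 and 7. Bmx is also known from endothelium. Of 11 endothelial markers, whose summed level was 2076 to 3696 normalized counts in Het and 2641 to 3547 in Ko, the receptor gene Tek was highest (1452 to 2285 and 1435 to 2180), while Tie1 had 15 and 8 reads over the groups and Cdh5 57 and 280. Their part in the Bmx values was not tested.

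Plcg2, the phospholipase of B cell and Fc receptor signalling, was higher in every Ko library. It stood at 3237, 2823 and 2532 normalized counts in Het1 to Het3, against 4163, 3942 and 4349 in Ko1 to Ko3. The groups did not overlap, and the Ko libraries were close together, with an SD of 4.91% of their mean. The Ko mean was 1.45-fold the Het mean (log2 fold change 0.54 ± 0.17, SE; 95% interval 0.17 to 0.91; unadjusted p = 0.00890), a difference that did not pass limma's adjustment (adjusted p = 0.184). DESeq2 did not call it either (adjusted p = 0.0645), whereas the authors' deposited table gives 0.53 with an adjusted p of 0.0354. With tuft cell markers set equal the log2 fold change was 0.21. Plcg1, its relative in most other cells, was far below it, at 181 to 489 normalized counts in Het and 132 to 247 in Ko, so that Plcg2 was 6.86 to 21.3 times Plcg1 per kilobase in Het and 20.0 to 39.2 times in Ko (two-sided exact permutation p = 0.20; 0.35 adjusted over 7 ratios). Against Plcb2, the phospholipase of the taste pathway, Plcg2 stood at 0.544 to 0.683 of its level per kilobase in Het and 0.793 to 0.864 in Ko, without overlap (exact permutation p = 0.10; 0.233 adjusted).

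Among 20 genes that act with or after phospholipase C (18 tested), 0 passed the test; 8 log2 fold changes were positive and 10 negative, with a median of -0.20. Itpr2, a calcium channel gated by inositol trisphosphate, was at 6440, 5115 and 5217 normalized counts in Het1 to Het3, against 8214, 7461 and 9631 in Ko1 to Ko3. Its groups did not overlap (log2 fold change 0.59 ± 0.16, SE; limma adjusted p = 0.131). Itpr3, the receptor of the taste pathway, lay the other way, at 452 to 1181 in Het and 311 to 397 in Ko (limma adjusted p = 0.399). Rasgrp3 and Prkcq, which answer to diacylglycerol in lymphocytes, had 260 and 324 reads over the Het libraries and 8 and 18 over the Ko libraries (limma adjusted p = 0.256 and 0.270).

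Vav1, the exchange factor that activates Rac GTPases in blood cells, hardly separated the groups. It stood at 7721, 6809 and 5266 normalized counts in Het1 to Het3, against 6974, 6860 and 8437 in Ko1 to Ko3, and the ranges overlapped. The log2 fold change was 0.18 ± 0.17 (SE; 95% interval -0.21 to 0.57; limma adjusted p = 0.713). It was the leading Vav gene per kilobase, above Vav2 at 60.4 and 47.6 and Vav3 at 93.9 and 39.5 (means of Het and Ko). Vav3, found more widely in epithelium, had 360, 270 and 783 normalized counts in Het1 to Het3, against 114, 208 and 272 in Ko1 to Ko3. Vav3 had a log2 fold change of -1.18 ± 0.53 (SE; limma adjusted p = 0.366). Vav1 was 11.4 to 42.8 times Vav3 per kilobase in Het and 52.5 to 103 times in Ko (exact permutation p = 0.10; 0.233 adjusted over 7 ratios).

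Rac2, the Rac GTPase of blood cells, stood at 6222, 5304 and 4324 normalized counts in Het1 to Het3, against 3414, 4390 and 3560 in Ko1 to Ko3. The groups overlapped, with Ko2 just above Het3 and the other 2 Ko libraries below all Het libraries. The Het mean was 1.39-fold the Ko mean (log2 fold change -0.47 ± 0.19, SE; 95% interval -0.89 to -0.06; unadjusted p = 0.0287; limma adjusted p = 0.303). Rac1, the Rac of nearly all cells, was at 2479 ± 685 and 1782 ± 295 normalized counts, and the ratio of Rac2 to Rac1 per kilobase was 1.87 to 4.74 in Het and 2.83 to 3.01 in Ko. Its log2 value differed by -0.02 between the groups (exact permutation p = 0.80). None of the 4 Rac family genes passed the test.

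Of 16 regulators and effectors of Rac (15 tested), 0 rose and 1 fell, where 0.814% of all genes were called. The median over the list was -0.11 on the log2 scale. The one that fell was Cybb, which encodes the catalytic subunit of the phagocyte oxidase, the enzyme that Rac2 helps to switch on. Cybb stood at 167, 729 and 551 normalized counts in Het1 to Het3, against 1.03, 14.5 and 1.43 in Ko1 to Ko3, or 1708 reads in all against 16. This was a log2 fold change of -6.59 ± 1.13 (SE), with a limma adjusted p of 0.0366. DESeq2 called Cybb, while edgeR (adjusted p = 0.0728) and voom (0.309) did not. The oxidase subunit genes Ncf1 and Ncf4 lay the same way without passing: Ncf1 had 1053 reads over Het and 25 over Ko libraries (limma adjusted p = 0.117), and Ncf4 stood at 292 to 651 and 116 to 172 normalized counts (0.131). Cybb's call was lost without Het1 (limma adjusted p = 0.0615), Het2 (0.181), Het3 (0.198), Ko1 (0.0548) or Ko3 (0.0803).

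**Figure D4:**
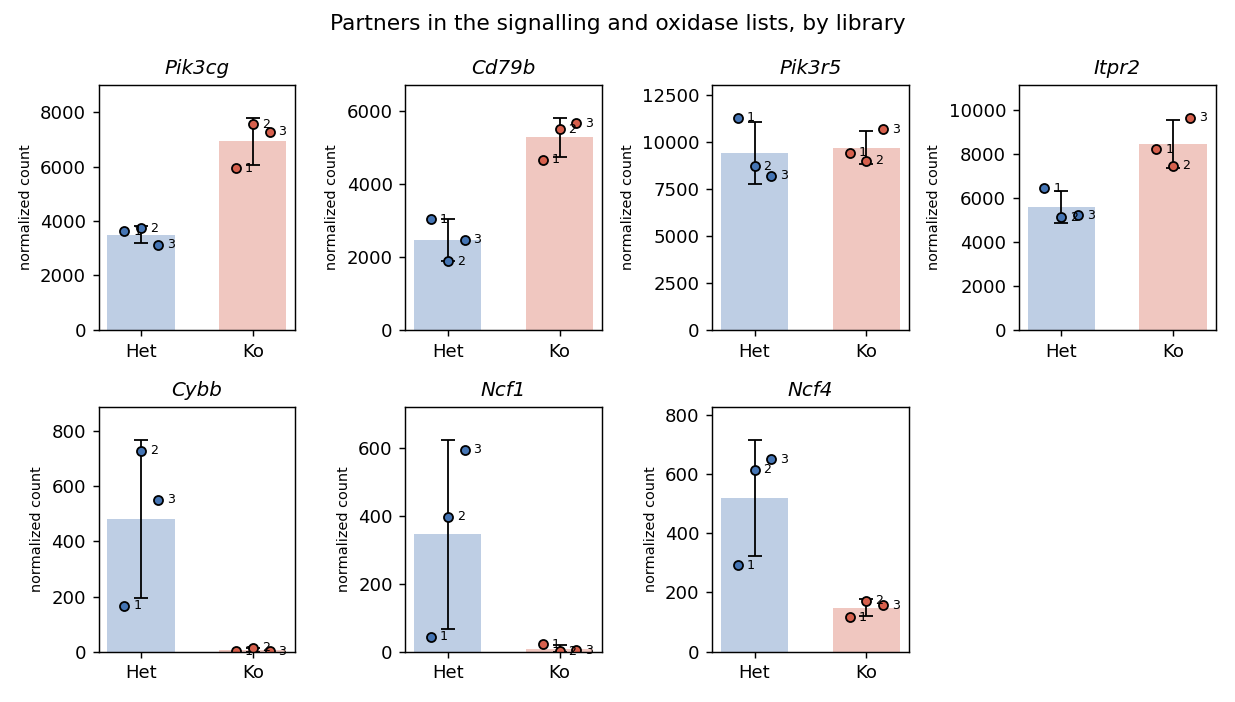
Normalized counts (linear axis from 0) of 4 genes around Plcg2 and 3 oxidase genes around Rac2; points are libraries marked with their column number, bars means and error bars SD (n = 3). Pik3cg and Cd79b lie above the Het range in all 3 Ko libraries, and Cybb, Ncf1 and Ncf4 below it, while Pik3r5 overlaps.

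Ptpn6, the phosphatase SHP-1, was second in level and the steadiest member among Ko libraries. It stood at 9937, 7721 and 7015 normalized counts in Het1 to Het3, against 7349, 7267 and 6854 in Ko1 to Ko3. Het1 was high, the other 5 libraries lay close together, and the groups overlapped. The log2 fold change was -0.19 ± 0.16 (SE; 95% interval -0.53 to 0.16; limma adjusted p = 0.665). Inpp5d, the lipid phosphatase SHIP-1 of blood cells, was also well read, at 4495 ± 1282 and 4459 ± 567 normalized counts. Ptpn11, the broadly expressed relative of Ptpn6, was at 285 ± 125 and 243 ± 132 and Inppl1, the relative of Inpp5d, at 200.2 ± 130 and 170 ± 86.7, and per kilobase the blood cell gene stood above the broad one in both pairs (Ptpn6 3706 and Ptpn11 51.5, Inpp5d 911 and Inppl1 40.1, Het means). None of these 4 passed the test.

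Ptprc, the receptor phosphatase CD45 that marks blood cells, was read in all 6 libraries, though low for its length. It stood at 627, 660 and 489 normalized counts in Het1 to Het3, against 301, 520 and 517 in Ko1 to Ko3, resting on 293 to 1122 reads a library. Ko1 was lowest, and Ko2 and Ko3 lay above Het3. The log2 fold change was -0.44 ± 0.35 (SE; 95% interval -1.21 to 0.33; limma adjusted p = 0.636). Among 11 receptor and PEST tyrosine phosphatases (10 tested) 0 passed the test. Ptpn18, a PEST phosphatase, was the highest of them per kilobase (13342 ± 2904 in Het and 10249 ± 506 in Ko), at 26002, 18647 and 17753 normalized counts in Het1 to Het3, against 15088, 16261 and 16587 in Ko1 to Ko3 (limma adjusted p = 0.334). Ptpn12 and Ptprs lay higher in all 3 Ko libraries, at 316 to 473 against 611 to 954 and at 805 to 975 against 1166 to 1740 (limma adjusted p = 0.211 and 0.236).

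**Figure D5:**
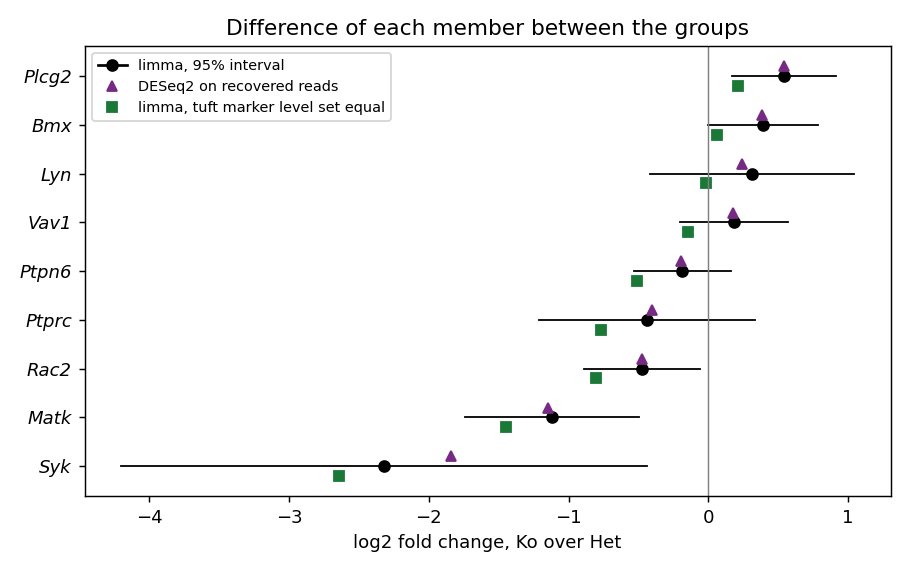
Log2 fold change of each member, Ko over Het (x axis), with limma's value and 95% interval in black, DESeq2's value as a purple triangle and limma's value with the tuft cell marker level set equal as a green square. Values run from -2.32 for Syk to 0.54 for Plcg2. Setting the marker level equal divides each library by 1 factor, which moves all 9 to the left along with the median of all genes (-0.05 to -0.38).

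Around the members, 125 further genes of the lists were considered, of which 113 were tested. Of these 2 rose and 1 fell, where limma called 158 of all 19416 genes (0.814%). Among the 113, 45 log2 fold changes were positive and 68 negative, and the median was -0.17. Unadjusted p-values under 0.05 were found for 20.4% of them, against 13.6% of all genes, and groups without overlap for 24.8%, against 18.4%. Pik3cg, the G protein-coupled PI3 kinase of blood cells, rose from 3632, 3725 and 3130 normalized counts in Het1 to Het3 to 5935, 7551 and 7284 in Ko1 to Ko3 (log2 fold change 0.98 ± 0.16, SE; limma adjusted p = 0.0328; edgeR 0.0509). Its regulatory subunit Pik3r5 was at 9419 ± 1653 and 9715 ± 865 (limma adjusted p = 0.918). Pik3cd, the other PI3 kinase of blood cells, had 29 and 24 reads. Cd79b, an ITAM subunit of the B cell receptor, rose from 3039, 1876 and 2473 to 4665, 5508 and 5665 (log2 fold change 1.12 ± 0.20, SE; limma adjusted p = 0.0433; edgeR 0.0826), while its partner Cd79a had 160 reads over the Het and 4 over the Ko libraries. With tuft cell markers set equal, neither passed (limma adjusted p = 0.230 and 0.153), nor with TMM factors (0.0600 and 0.0584). The call of Pik3cg was kept only without Ko1 (0.0393) and lost without Het1 (0.0518), Het2 (0.108), Het3 (0.153), Ko2 (0.0869) or Ko3 (0.114); that of Cd79b was kept only without Het1 (0.0362) and lost without Het2 (0.142), Het3 (0.171), Ko1 (0.0661), Ko2 (0.108) or Ko3 (0.138).

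The adaptors of immune receptors ranged from well read to nearly unread. Sh2d6, an SH2 adaptor known from tuft cells, was at 31455, 18774 and 17172 normalized counts in Het1 to Het3, against 26394, 28221 and 32175 in Ko1 to Ko3 (limma adjusted p = 0.418). Fyb, Skap2 and Blnk, adaptors of blood cells, were also well read, at 5979 ± 1191, 5419 ± 742 and 1928 ± 354 in Het and 7520 ± 1130, 6050 ± 251 and 1679 ± 373 in Ko. At lower levels, Lcp2 (SLP-76) and Pik3ap1 (BCAP) had 305 and 471 reads over the Het and 9 each over the Ko libraries, and Grap 1636 and 247. These 3 did not overlap between the groups and none passed (limma adjusted p = 0.205, 0.108 and 0.172). Lat2, Clnk and Bank1 had 24, 4 and 16 reads over the Het and 8, 4 and 7 over the Ko libraries. Of the 26 adaptors, 22 were tested and 0 passed, with 11 positive and 11 negative log2 fold changes.

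Because the members are genes of blood cells, markers of those cells were read in the same libraries. Of 18 T lineage markers, 14 to 17 had reads in each Het and 14 to 16 in each Ko library, and their summed level was 678 to 1179 normalized counts in Het and 862 to 1530 in Ko. Themis, a T lineage gene, was at 8.39, 58.9 and 79.4 in Het1 to Het3 and 434, 379 and 908 in Ko1 to Ko3 (limma adjusted p = 0.0735). Without it the sum was 619 to 1099 in Het and 428 to 622 in Ko. The groups overlapped with Themis and, narrowly, without it. The thymocyte genes Cd8a, Rag1, Rag2 and Ptcra had at most 9 reads in a group. Of the 12 B cell markers, the summed level without Cd79b was 640 to 1421 in Het and 633 to 852 in Ko, and Ms4a1 had 7 and 4 reads. Of the 20 macrophage and dendritic cell markers, 18 to 20 had reads in Het and 15 to 19 in Ko libraries. Their summed level was 6320 to 54892 and 1766 to 3441, and without Lyz2 it was 1592 to 2655 and 542 to 1517, so that the groups did not overlap either way. Of the 12 granulocyte and mast cell markers, 8 to 10 and 7 to 9 had reads, and without Kit, which was at 1642 to 3281 in these libraries, the sum was 1188 to 6893 in Het and 91.6 to 278 in Ko. S100a9, a neutrophil gene on that list, fell from 428, 741 and 841 normalized counts in Het1 to Het3 to 2.06, 2.07 and 30.1 in Ko1 to Ko3 (limma adjusted p = 0.0272; edgeR 0.0728, voom 0.137, and up to 0.171 over the alternatives, so that the call was lost in these). The basophil and mast cell genes Mcpt8 and Fcer1a were at 0 reads in all Ko libraries, but neither was called. Mcpt8 had an adjusted p of 0.339 in edgeR and 0.813 in voom. Fcer1a fell below the filter on low values, and without that filter its log2 fold change was -0.43 (limma adjusted p = 0.787). Summed levels of NK and innate lymphoid markers were 906 to 1528 in Het and 448 to 922 in Ko; without Rora they were 16.8 to 394 and 14.5 to 30.1, with the NK receptor gene Ncr1 at 1 read in Het and 0 in Ko.

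The summed levels of myeloid and granulocyte markers thus lay lower in the Ko group, as did Syk, Cybb, Ncf1, Lcp2 and Pik3ap1. Of the 14 macrophage and dendritic cell markers tested, 3 log2 fold changes were positive and 11 negative, and 0 passed. The part of these markers in the values of those genes, or of the other members, was not tested. Among the Het libraries, Het3 was lowest for 8 of the 9 members and 15 of the 21 tuft cell markers, against 33.2% of all genes tested, and Het1 was highest for 6 of the 9 and 18 of the 21, against 33.9%.

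For each member the gene with the most similar profile over the 6 libraries was found among 12310 genes with a conventional symbol and a mean of at least 50, as Pearson's r of log2(value + 1). These were Hsd17b11 for Plcg2 (r = 0.998), Usp3 for Matk (0.996), Siae for Bmx (0.992), Ubac1 for Syk (0.997), Dpp9 for Lyn (0.995), Gpr137b for Vav1 (0.987), Chp1 for Rac2 (0.989), Slc16a5 for Ptpn6 (0.995) and Bmp2 for Ptprc (0.992). These values describe 6 points that share library and depth: between 13 and 118 genes had an r above 0.95 with each member. Hsd17b11, for example, stood at 714, 558 and 431 normalized counts in Het1 to Het3, against 1120, 989 and 1186 in Ko1 to Ko3, and Usp3 at 1706, 1730 and 890 against 772, 514 and 685.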

How the data were processed

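Total RNA of sorted L1CAM+ thymic tuft cells was sequenced in 3 Cre-negative and 3 Cre-positive samples. STAR 2.7.9a, DESeq2 and build GRCm39 are named in the submitters' processing notes; the read counter, annotation, filters and strand setting were not given in the sources used here. Each deposited value is a signal: reads of a gene over the size factor of its library. The authors' deposited comparison table holds log2 fold changes, standard errors and Wald statistics (a score), p-values and adjusted p-values, per the file headers. Column names could be tied to groups but not to single samples.

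Symbols were matched for 55144 of 55471 identifiers. Genes with a mean of at least 10 were tested with limma 3.58.1 (R 4.3.3) on log2(value + 1) (eBayes with trend, two-sided, Benjamini-Hochberg over 19416 genes). The test was also run on simulated counts, with larger changes than those of most members. That run does not show how well smaller changes are found. Fold changes on this scale understate changes of low genes. Folds between group means use the normalized counts. Values were whole multiples of 1 read, within 0.01 reads, for 100% of values, and DESeq2 1.42.0, voom and the quasi-likelihood test of edgeR 4.0.16 were run on these reads. Read totals were 12238428 to 31435787, and reads are not counted molecules, so low totals are uncertain. Reads summed over a group are not scaled for depth, and Het1 and Het2 were the deepest libraries. Lengths are those of the principal transcript in GENCODE M21 (GRCm38). An exact test of 3 against 3 cannot go below 0.10. The members and lists were chosen with earlier results of these data known; the 7 ratios and the length scale were chosen after the values were seen. Some listed genes, and 1 of the 7 ratios, are counted but not reported here. Named genes are the members, their family relatives, up to 3 further genes of each list by smallest p, all listed genes that passed, leading or absent markers and 1 most similar gene per member; genes named for their level (Trpm5, Sh2d6, Fyb, Skap2, Blnk, Pik3r5, Pik3cd, Lat2, Clnk, Bank1 and Cd79a) or their contrast (Itpr3, Cd72, Ceacam1, Tyrobp), with single markers (Csf1r, Cdh5, Tie1), were chosen after their values were seen.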

Additional observations from a re-analysis of the deposited data

How the results depend on the processing

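No member was called in limma under any pseudocount, filter or scaling tried, with the replicate block or without any 1 library, and DESeq2 called 1 (Matk). Over all genes tested, 158 were called (56 higher, 102 lower). The count was 97 with tuft cell markers set equal (9 and 88), 75 in edgeR, 1151 in DESeq2, 40 in voom, and 0 to 116 when 1 library was left out, 0 of them without Het3; with TMM factors it stayed 158, split 37 and 121. Of the 113 listed genes tested beside the members 3 were called, against 1 with TMM factors and 1 with tuft cell markers set equal. EdgeR called 0 of them (0.386% of all genes), DESeq2 14 (5.93%) and voom 1 (0.206%). Without 1 library 0 to 1 of them were called. Setting tuft cell markers equal moved the median of all genes from -0.05 to -0.38 on the log2 scale; Vav1 then stood at -0.15 and Lyn at -0.0144, the reverse of their signs otherwise, and Lyn ran from -0.0149 (without Het3) to 0.6243 (without Het1) when 1 library was left out. Members' log2 fold changes kept their direction under the other alternatives. A block by column number left 87 genes called over all tested (25 higher, 62 lower) and 1 of the listed genes; same-numbered columns hardly deviated together (r = -0.015 to 0.025 across genes), and Het1, Het2 and Ko1 correlated best with their own number while Het3, Ko2 and Ko3 did not, so the numbers do not show pairs. The Syk value of Ko3 rests on 13 reads.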

Other observations

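Receptors with ITIM motifs, the docking sites of Ptpn6, were read at low levels and went both ways: of 13 such genes 12 were tested, 0 passed, and 4 log2 fold changes were positive and 8 negative. Siglecf, a sialic acid receptor, was at 239, 109 and 185 normalized counts in Het1 to Het3, against 293, 459 and 511 in Ko1 to Ko3 (limma adjusted p = 0.268), and Cd72 at 17.9 to 37.5 and 47.3 to 236 (0.502), both without overlap. Cd33 had 493 reads over the Het and 9 over the Ko libraries (0.229). Sirpa rested on Ko1 alone, at 440 normalized counts against 2.80 to 43.0 in the other 5 libraries. Ceacam1, an adhesion receptor, stood at 487 ± 78.2 in Het and 433 ± 49.5 in Ko (SD, n = 3 each; limma adjusted p = 0.876).

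Further ITAM subunits were read beside Cd79b. Fcer1g stood at 384, 260 and 645 normalized counts in Het1 to Het3, against 416, 41.4 and 135 in Ko1 to Ko3, and Tyrobp at 80.5, 0.71 and 188 and at 183, 1.04 and 427, so that neither separated the groups. Cd247 had 627 reads over the Het and 31 over the Ko libraries, without overlap (limma adjusted p = 0.153).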
